A study of Mus musculus with 3 samples.

Results

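The AP-1 factors examined here are 8 of the 32287 features counted in each library, chosen by gene symbol: *Fos*, *Fosb*, *Fosl1* and *Fosl2* of the Fos family, *Jun*, *Junb* and *Jund* of the Jun family, and *Atf3*. All 8 were found. Müller glia (MG), the main glia of the retina, were labelled with tdTomato in Glast-CreERT2; R26-CAG-LSL-Tdt mice, in which Cre is driven from the *Glast* locus and acts after tamoxifen, given by the labels at 75 mg/kg from P20. The control library came from eyes injected at P28 with AAV7m8-GFAP-GFP-LacZsh. The CCA (cell cycle activator) library came from eyes given a vector with cyclin D1 and a p27 shRNA, mixed 9:1 with the control vector, and the CCANT library from eyes given the same mix, then NMDA at P35 and TSA, a histone deacetylase inhibitor, at P37. A GFAP promoter drives both vectors, all retinas were taken at P51 by the labels, and each library pooled 2 to 4 retinas that had been dissociated with papain at 37°C and sorted for tdTomato.

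AP-1 is a pair of basic leucine zipper proteins, one of the Jun family with another Jun, a Fos protein or an ATF protein. Many of these genes are immediate-early genes, transcribed within minutes of growth factors, injury or stress, and their transcripts are short-lived. Tissue dissociation is also known to induce them, and in MG they are part of the early response to retinal damage.

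The main population is the 10926 cells that the authors kept in their series-wide table (3758 control, 3890 CCA and 3278 CCANT), with median depths of 24235.5, 20710.5 and 20721.5 UMIs per cell. Levels are UMIs per 1000000 UMIs of all genes (CPM), summed over cells. With 1 library per group no test between groups was possible. All intervals are 95% intervals that cover counting error only, not the differences between mice. Those of levels and ratios also leave out the spread between cells. The intervals are exact, except that differences between log2 ratios of the kept cells and a class carry a normal interval, which is rough at few UMIs. MG markers summed to 18990, 17323 and 16801 CPM in the kept cells of the control, CCA and CCANT libraries, with none of the markers at 0. The kept control cells carried Y-linked transcripts (3505 cells) and the kept CCA cells *Xist* (3859 cells), so sex and treatment cannot be told apart between them. CCANT held both (1183 and 1718 cells). Rod markers in the kept cells summed to 280.5, 792.0 and 1414 CPM in control, CCA and CCANT. Cone markers summed to 28.4, 58.7 and 58.7 CPM, and astrocyte markers, which include *Gfap*, to 38.8, 100.9 and 138.6 CPM. The part of these in the results was not tested.

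Promoter windows were matched for 7 of the 8 members (RefSeq, GRCm38.p6, from 250 bases before to 50 after the start), with none for *Fosl1*. The letters TGACG, the core of the element bound by CREB and ATF proteins, were searched on both strands, and any window of a member counted. They were found for *Fos*, *Fosb*, *Junb* and *Atf3*, against 20.8% of all 32851 promoter windows taken singly. These stretches are shown because they lie beside the members described next, with the core in capitals and the gene's strand read 5′ to 3′.
Fos, chr12:85473749-85473778, plus strand: ggggcgtagagtTGACGacagagcgcccgc
Fos, chr12:85473812-85473841, plus strand: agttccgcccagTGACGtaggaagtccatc
Fosb, chr7:19310088-19310117, minus strand: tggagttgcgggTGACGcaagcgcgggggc
Junb, chr8:84978837-84978866, minus strand: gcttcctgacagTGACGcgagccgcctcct
Atf3, chr1:191183323-191183352, minus strand: ttaatagcattaCGTCAgcctgggattggt
In *Atf3* the core is on the other strand and is read as CGTCA. The *Atf3* stretch lies inside the gene span given below, not at the 5′ end of that span. No window of a member held the full palindrome TGACGTCA (1.79% of all windows), the AP-1 site TGANTCA (7.81%) or a CArG box, the site of serum response factor (1.63%). A match is a description of letters, not of a bound site.

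All 8 members were higher in the kept cells of the CCA library than in those of the control, as were 60.7% of all genes tested, and all 8 were higher in CCANT, as were 55.3%. Summed over the members, the control level of 3435 CPM stood beside 5720 CPM in CCA and 5598 CPM in CCANT. On the log2 scale CCA lay above the control by 0.74 (0.73 to 0.74) and CCANT by 0.70 (0.70 to 0.71). The median log2 ratio of the 8 members was 0.98 for CCA and 1.08 for CCANT, beside 0.07 and 0.03 for all genes tested. At least 2-fold higher were 3 of 8 members in CCA (*Fosl1*, *Junb*, *Atf3*), where 5.81% of 17630 genes with at least 50 UMIs passed that fold, and 4 of 8 in CCANT (the same 3 and *Fosl2*), where 5.55% of 17380 did. At a fold of 1.5 it was 7 of 8 members in CCA, beside 11.8% of genes, and 6 of 8 in CCANT, beside 11%. *Fos* (1.95-fold) and *Fosl2* (1.99-fold) lay just under the limit in CCA. These values depend on cluster 2 of the kept cells, which was led by *Ccn1* and *Gfap*, has *Junb*, *Fosb* and *Fos* among its 10 leading genes, and held 107 control, 1173 CCA and 1340 CCANT cells. Without its cells the summed log2 ratios were 0.46 for CCA and 0.48 for CCANT, and the members at least 2-fold higher numbered 2 in CCA and 1 in CCANT.

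**Figure D1:**
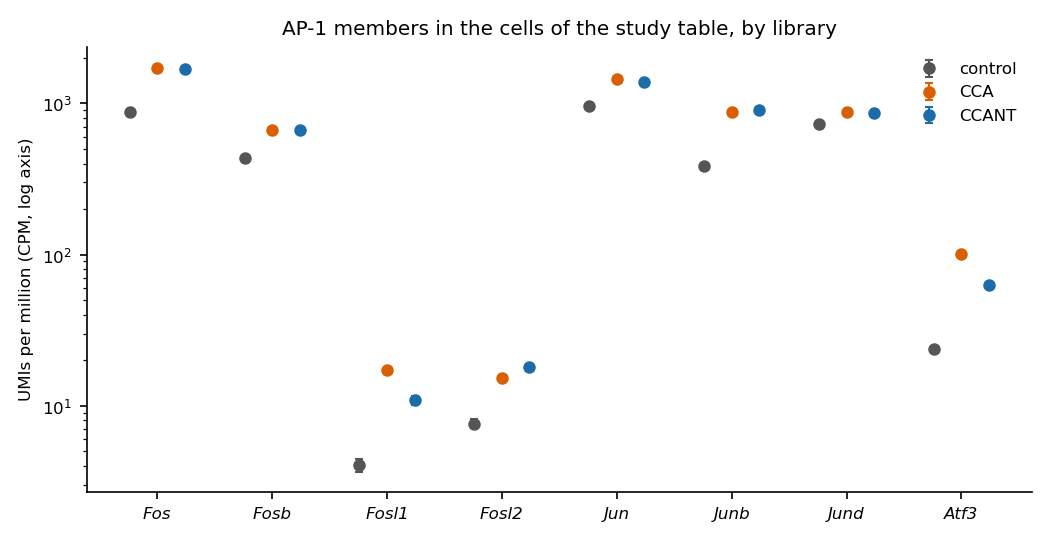
Level of each AP-1 member (CPM, log axis) in the kept cells of the 3 libraries, 1 point per library, with exact 95% Poisson intervals for counting error only. Every member is lowest in the control library, and *Fosl1*, *Fosl2* and *Atf3* lie far under the other 5.

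Of the Fos family, *Fos*, the prototype immediate-early gene (chromosome 12, 85473890 to 85477273), was counted at 882.4 CPM in the control library, at 1723 CPM in CCA and at 1697 CPM in CCANT. The control was lowest and CCA and CCANT lay close together, above it by 0.97 (0.95 to 0.98) and 0.94 (0.93 to 0.96) on the log2 scale. *Fosb* (chromosome 7, 19302696 to 19310051), whose products include a stable truncated form, rose from 431.9 CPM to 667.9 in CCA and 668.0 in CCANT, a log2 ratio of 0.63 in both. *Fosl1*, which encodes FRA1 (chromosome 19, 5447547 to 5455946), was scarce, with 4.03 CPM in the control library, 17.1 CPM in CCA and 10.9 CPM in CCANT. CCA exceeded the control by 2.09 (1.92 to 2.25) on the log2 scale and CCANT did by 1.43 (1.25 to 1.61), and CCANT lay under CCA by -0.66 (-0.78 to -0.53). Cluster 2 held 985 of the 1427 *Fosl1* UMIs in CCA, and without it both ratios over control were 1.24. *Fosl2*, which encodes FRA2 (chromosome 5, 32135801 to 32157842), went from 7.64 CPM to 15.2 in CCA (log2 ratio 0.99, 0.86 to 1.13) and 17.9 in CCANT (1.23, 1.10 to 1.36).

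In the Jun family the increase was largest for *Junb* and smallest for *Jund*. *Jun* (chromosome 4, 95049034 to 95052222), the partner of most Fos proteins, went from 962.9 CPM in the control library to 1451 in CCA (log2 ratio 0.59, 0.58 to 0.60) and 1382 in CCANT (0.52, 0.51 to 0.53). *Junb* (chromosome 8, 84974484 to 84978718), which can oppose Jun at some promoters, went from 387.5 CPM to 872.7 in CCA (log2 ratio 1.17, 1.15 to 1.19) and 899.9 in CCANT (1.22, 1.20 to 1.23). *Jund* (chromosome 8, 70698949 to 70700616), the member with the steadiest expression in most tissues, went from 734.4 CPM to 871.5 in CCA (log2 ratio 0.25, 0.23 to 0.26) and 859.8 in CCANT (0.23, 0.21 to 0.24). Without cluster 2 the *Jund* ratio was 0.04 for CCA and 0.08 for CCANT.

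*Atf3*, a stress-induced member of the ATF family (chromosome 1, 191170296 to 191218039), was counted at 23.7 CPM in the control library, at 101.2 CPM in CCA and at 62.5 CPM in CCANT. Over the control this was a log2 ratio of 2.09 (2.02 to 2.16) in CCA and of 1.40 (1.32 to 1.47) in CCANT, and CCANT lay under CCA by -0.70 (-0.75 to -0.64). So *Fosl1* and *Atf3* were lower in CCANT than in CCA, while the other 6 members differed between these libraries by at most 0.24 on the log2 scale. Among *Xist*-bearing cells alone, *Atf3* in CCANT lay under CCA by -0.87 and *Fosl1* by -0.72. Among Y-bearing cells alone, the summed log2 ratio of CCANT over control was 0.71. In GENCODE, *Fosl1*, *Jun*, *Junb*, *Jund* and *Atf3* overlap a gene on the opposite strand.

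In shares of cells, counted after every cell had been thinned to 3000 UMIs, *Atf3* had a UMI in 4.50% of control cells (3.86 to 5.21), 17.2% of CCA cells (16.0 to 18.4) and 11.1% of CCANT cells (10.1 to 12.3). At full depth the shares were 18.2%, 40.3% and 29.7%. In amacrine cells, which had the lowest level of *Atf3* in each library, the thinned shares were 0.722%, 1.91% and 1.23%. *Junb* was found in 55.7% of control, 75.6% of CCA and 77.4% of CCANT cells. *Jund* did not separate the libraries on this measure, at 85.8%, 86.0% and 85.8%. With cells thinned to 8000 UMIs, which left out 36, 103 and 53 cells, the median cell held 25 UMIs of the 8 members in control and 43 in each of CCA and CCANT. Cells with at least 50 member UMIs made up 7.01% of control, 40.0% of CCA and 38.7% of CCANT cells, while the lowest 10% of cells held at most 12, 13 and 13. The increase was uneven among cells, with a low end that was close between libraries.

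Members were detected together to unequal degrees. In single cells at 8000 UMIs, Spearman's rho of *Fos* with *Fosb* was 0.45 in control, 0.64 in CCA and 0.62 in CCANT, and of *Fos* with *Junb* 0.40, 0.66 and 0.61. *Fosl1*, with few UMIs, had values of at most 0.17 with any other member in any library. These values describe cells that share a library and are not tests.

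Within clusters of the kept cells the order of the libraries was mostly the same. The clusters were made without the members, but the genes that define them may vary with the members. In cluster 1, the largest, the summed level was 2828 CPM in control (2477 cells), 4321 in CCA (1958 cells) and 4297 in CCANT (1334 cells), with log2 ratios over control of 0.61 and 0.60. In cluster 2 it was 5439, 8291 and 6842 CPM. *Fosl1* did not follow this order: in CCA its log2 ratio within the cluster was 0.28 (-0.04 to 0.61), and in CCANT it lay under control by -1.09 (-1.42 to -0.74) on the log2 scale. *Fosb* (0.04, -0.02 to 0.11) and *Jund* (0.01, -0.05 to 0.07) in CCANT were not separated from control there. In cluster 4, led by interferon-response genes and mostly of control cells (1105, against 233 CCA and 45 CCANT), the summed level was 4455, 5570 and 5747 CPM. There *Jund* lay under control in CCA by -0.06 (-0.11 to -0.02), and *Fosl1* in CCANT had a log2 ratio of -0.53 (-2.17 to 0.71). *Fosb* (0.07, -0.05 to 0.19), *Fosl2* (0.46, -0.40 to 1.20) and *Atf3* (0.37, -0.03 to 0.74) in CCANT were not separated from control in that cluster. Cycling glia, found in CCA (248 cells) and CCANT (68 cells) and not in the control, stood at 3422 and 4040 CPM, under the other glia of their own library by -0.76 and -0.48 on the log2 scale. In CCA all 8 members were lower in cycling glia, as were 47.4% of all genes tested, and in CCANT 6 of 8 were, beside 47.9%. In CCANT *Fosl1* was higher there by 1.26 (0.77 to 1.71) and *Atf3* by 0.36 (0.11 to 0.60).

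**Figure D2:**
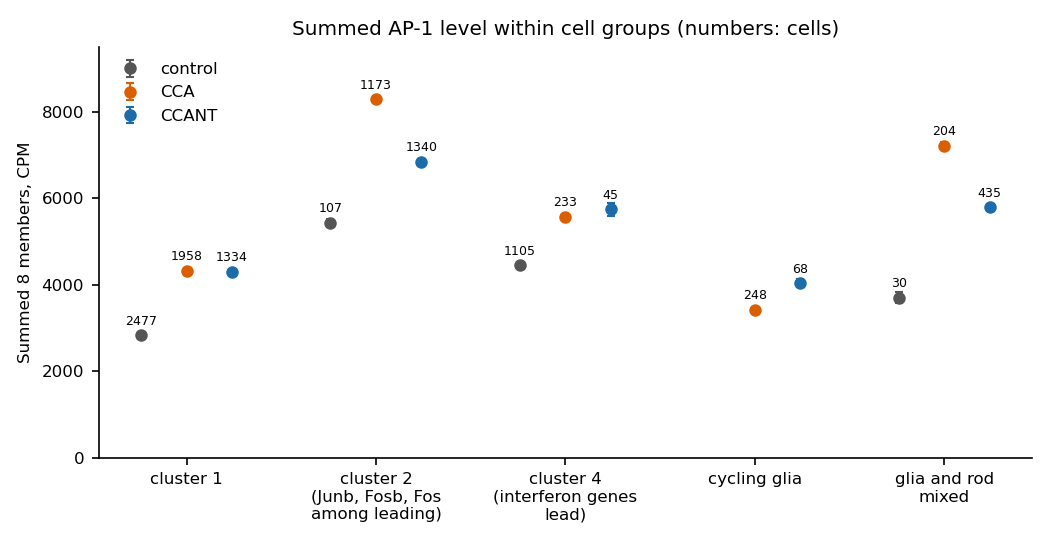
Summed level of the 8 members (CPM) within clusters of the kept cells, 1 point per library, with exact 95% Poisson intervals for counting error only and the number of cells beside each point. In clusters 1, 2 and 4 and in the mixed glia and rod cells the control is lowest, and the cycling glia have no control cells.

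Within the control library, cells with 2 or more GFP UMIs at 8000 UMIs had more of each of the 8 members than cells with none, where 45.3% of all genes tested were higher (summed level 4306 against 3252 CPM, log2 ratio 0.41). The largest of these differences were *Fosl1* (1.55) and *Atf3* (1.16). The other libraries had few cells with GFP. In the 86 CCA cells with 1 GFP UMI, *Fosl1* lay under cells with none by -1.41 (-2.32 to -0.63) and *Atf3* by -0.42 (-0.66 to -0.18), and the summed level was 5841 against 5736 CPM. In the 59 such CCANT cells *Fosl1* differed by 0.18 (-0.63 to 0.89) and *Atf3* by 0.17 (-0.14 to 0.47). GFP comes from the control vector, and its part in the comparison of libraries was not tested.

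To ask which members rose in glia beyond the other classes, cells outside the table were grouped by markers into rod-like, cone-like, bipolar-like, amacrine-like, microglia-like and pericyte-like classes, called by those names below. They held 842, 1333 and 1263 rods, 176, 289 and 301 cones, 517, 781 and 949 bipolar cells, 554, 576 and 487 amacrine cells, 225, 147 and 155 microglia and 55, 97 and 40 pericytes in control, CCA and CCANT. The microglia class also held plasma cell transcripts (3701 CPM in CCANT against 202.1 in control) and T or NK cell transcripts (1427 CPM in control against 124.3 in CCANT). MG markers summed to between 943.1 and 4291 CPM in the 6 classes and to between 16801 and 18990 CPM in the kept cells.

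The kept cells had the highest summed level in each library. Microglia followed with 2445, 3240 and 3191 CPM, then pericytes with 1589, 2972 and 2109, and the neurons stood between 324.4 and 1334 CPM. Single members did not all follow this order. *Atf3* was highest in microglia at 136.2, 256.5 and 157.5 CPM, with 28.9%, 46.9% and 24.5% of microglia holding a UMI at 3000. *Junb* was also higher in control microglia (622.1 CPM) than in control kept cells (387.5), and lower in CCA and CCANT. *Fosl2* was higher in pericytes than in the kept cells of each library (28.9 CPM in the pericytes of CCA and 38.8 in those of CCANT), and higher in microglia in control (13.8 CPM) and CCA (29.2 CPM).

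**Figure D3:**
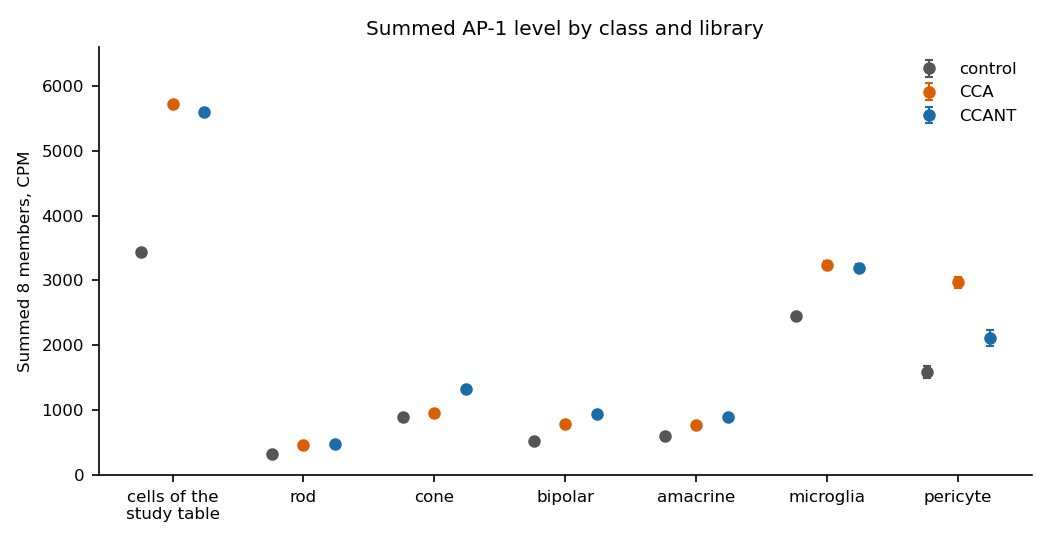
Summed level of the 8 members (CPM) in the kept cells and in 6 classes outside the table, 1 point per library, with exact 95% Poisson intervals for counting error only. The kept cells are highest in each library, and the control is lowest in every class.

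As counted, the summed level was higher in CCA and in CCANT than in control in each of the 6 classes. For CCA over control the log2 ratio was 0.50 in rods, 0.09 in cones, 0.57 in bipolar cells, 0.36 in amacrine cells, 0.41 in microglia and 0.90 in pericytes, beside 0.74 in the kept cells. The kept cells exceeded 5 of the 6 classes, by 0.17 (0.12 to 0.21) for bipolar cells up to 0.64 (0.57 to 0.72) for cones, and lay under pericytes by -0.17 (-0.26 to -0.08). For CCANT over control the classes stood at 0.54, 0.58, 0.83, 0.58, 0.38 and 0.41, and the kept cells at 0.70, under bipolar cells by -0.13 (-0.17 to -0.08) and above the other 5.

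Doublets had not been removed from the classes. The order of classes changed when the cells with the highest doublet scores were left out, and the part of doublets in this was not tested. Scrublet, a doublet caller, marked 17 of 97 pericytes, 16 of 147 microglia, 42 of 576 amacrine cells, 53 of 781 bipolar cells, 19 of 289 cones and 1 of 1333 rods in CCA, and 0 in control and CCANT, where its threshold made no calls. Without the 5% of cells of each library with the highest score, the log2 ratio for CCA was 0.69 (0.58 to 0.80) in pericytes and 0.86 (0.72 to 1.00) in cones. Both intervals held the 0.74 of the kept cells, so neither class was separated from them. For CCANT the log2 ratio was then 0.44 (0.37 to 0.51) in bipolar cells and 1.61 (1.48 to 1.74) in cones, beside 0.71 in the kept cells. By this step the summed level of cones fell to 271.4 CPM (control), 492.4 CPM (CCA) and 828.0 CPM (CCANT). That of bipolar cells fell to 304.1, 387.0 and 412.0 CPM in the same order. For CCA the log2 ratio was then 0.50 in rods, 0.35 in bipolar cells, 0.17 in amacrine cells and 0.39 in microglia.

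These class levels may include transcripts of glia, either carried over or from doublets with glia. The estimate below does not separate these from each other or from a class's own expression of a marker. The carried part was estimated as the median, over the glial markers, of the class level as a percent of the kept level. In bipolar cells it was 10.6% in control, 11.0% in CCA and 14.6% in CCANT. In the same order it was 19.1%, 24.1% and 24.7% in pericytes, 12.9%, 13.9% and 22.0% in microglia, and 20.6%, 11.9% and 20.9% in cones. Amacrine cells had 11.5%, 8.8% and 12.7%, and rods 5.0%, 5.3% and 6.5%. After subtracting it, the summed level left in bipolar cells was 162.8, 150.8 and 116.7 CPM, in rods 154.0, 152.8 and 109.9, and in cones 183.7, 267.5 and 165.9. In amacrine cells 207.0, 271.8 and 190.3 CPM were left, in microglia 2003, 2442 and 1960, and in pericytes 934.8, 1593 and 727.7. On this estimate CCANT lay under control in all 6 classes, and CCA lay above it in 4, with rods and bipolar cells the exceptions. With the glial marker of lowest percent in place of the median, CCA lay above control in all 6 classes and CCANT in cones, amacrine cells and microglia. With the marker of highest percent, CCA lay above control in cones and pericytes alone and CCANT in no class, and the amount left in amacrine cells was negative in each library. Whether the members rose in neurons therefore cannot be told apart from carry-over or doublets here.

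In CCA, 0 of 8 members had a log2 ratio in the kept cells above that in every class, where 10.1% of 7096 genes did. In CCANT it was 1 of 8, *Atf3*, where 6.55% of 5127 genes did. Among genes at least 1.5-fold higher in the kept cells, as most members were, the shares were 62.1% of 227 in CCA and 53.1% of 177 in CCANT. These were picked by their ratio in the kept cells. The genes behind all these shares held at least 50 UMIs in every class, and the members were counted without that limit. *Atf3* rested on 14 UMIs in pericytes, where the excess was 0.54 (-0.99 to 2.07). With the limit, 0 of 6 members passed in CCA and 0 of 5 in CCANT. In CCA *Fos* (-0.21), *Jun* (-0.40), *Jund* (-0.15) and *Atf3* (-1.22) fell short against pericytes alone, and *Junb* against bipolar cells alone (-0.02). *Fosb* fell short against rods, bipolar cells and pericytes, and *Fosl2* against cones and microglia. The pericyte class held 55 control and 97 CCA cells, of which Scrublet marked 17 in CCA. *Fosl1* could not be compared with pericytes, which held 0 UMIs of it in control. In CCA its ratio was above that of every other class, on at most 57 UMIs in any. Without cluster 2 the CCANT count was 0. The count moved between 0 and 1 in CCA and between 0 and 2 in CCANT over the alternatives, and in CCA the member that passed was *Junb*, except after thinning, where it was *Fos*, and where classes with under 50 UMIs of a member were skipped, where it was *Fosl1*, compared with amacrine cells alone.

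For *Atf3* the log2 ratio in CCA exceeded that of rods by 1.76 (1.31 to 2.21), bipolar cells by 1.41 (1.02 to 1.79), cones by 1.03 (0.42 to 1.63) and amacrine cells by 0.82 (0.40 to 1.25), and that of microglia by 1.18 (1.03 to 1.33). It lay under pericytes by -1.22 (-2.40 to -0.04), where *Atf3* rested on 6 control UMIs against 121 in CCA. In CCANT the excess was 0.95 (0.50 to 1.41) over rods and 1.19 (1.01 to 1.37) over microglia, and over amacrine cells it was 0.03 (-0.40 to 0.46), which does not separate them. *Fosl1* exceeded amacrine cells by 1.07 (0.24 to 1.91), bipolar cells by 1.33 (0.19 to 2.47) and microglia by 1.56 (0.18 to 2.95) in CCA, on at most 57 UMIs in any class. *Fosl2* exceeded amacrine cells by 1.16 (0.71 to 1.62) in CCA and by 1.09 (0.63 to 1.54) in CCANT. It did not exceed every class: against cones the difference was -0.16 (-1.60 to 1.29) in CCA and -0.16 (-1.56 to 1.24) in CCANT, against microglia -0.08 (-0.53 to 0.36) in CCA, and against rods -1.41 (-3.52 to 0.70) in CCANT, on at most 28 UMIs in cones and rods.

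*Junb* exceeded microglia by 0.87 (0.80 to 0.95) in CCA and 1.00 (0.92 to 1.08) in CCANT, cones by 0.72 (0.52 to 0.92) and amacrine cells by 0.49 (0.37 to 0.61) in CCA, but not rods (0.12, -0.10 to 0.34) or bipolar cells (-0.02, -0.16 to 0.13). In CCANT it lay under bipolar cells by -0.17 (-0.31 to -0.03). *Fos* exceeded bipolar cells by 0.11 (0.01 to 0.21) in CCA and lay under them by -0.16 (-0.26 to -0.07) in CCANT. In CCA *Fos* (-0.21, -0.40 to -0.02), *Fosb* (-0.38, -0.66 to -0.09) and *Jun* (-0.40, -0.58 to -0.22) lay under pericytes. *Fos* and *Jun* exceeded every other class in CCA, from 0.11 for bipolar cells to 0.62 and 0.60 for cones. *Jund* did too, from 0.10 (0.01 to 0.19) for bipolar cells to 0.56 (0.41 to 0.71) for cones. It was not separated from pericytes (-0.15, -0.33 to 0.03). In CCANT *Jund* lay under bipolar cells by -0.09 (-0.17 to -0.01) and under microglia by -0.13 (-0.23 to -0.04). *Fosb* in CCA also lay under rods by -0.39 (-0.78 to -0.001), and exceeded cones by 0.72 (0.50 to 0.95) and amacrine cells by 0.21 (0.06 to 0.35). *Jun* lay under bipolar cells by -0.37 (-0.47 to -0.27) and under microglia by -0.24 (-0.32 to -0.16) in CCANT. After the same subtraction *Jun* in bipolar cells was left with 14.0, 1.4 and 12.5 CPM, and *Fos* with 19.8, 14.1 and -4.7 CPM. In microglia *Fos* was then 498.5, 650.6 and 345.7 CPM.

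**Figure D4:**
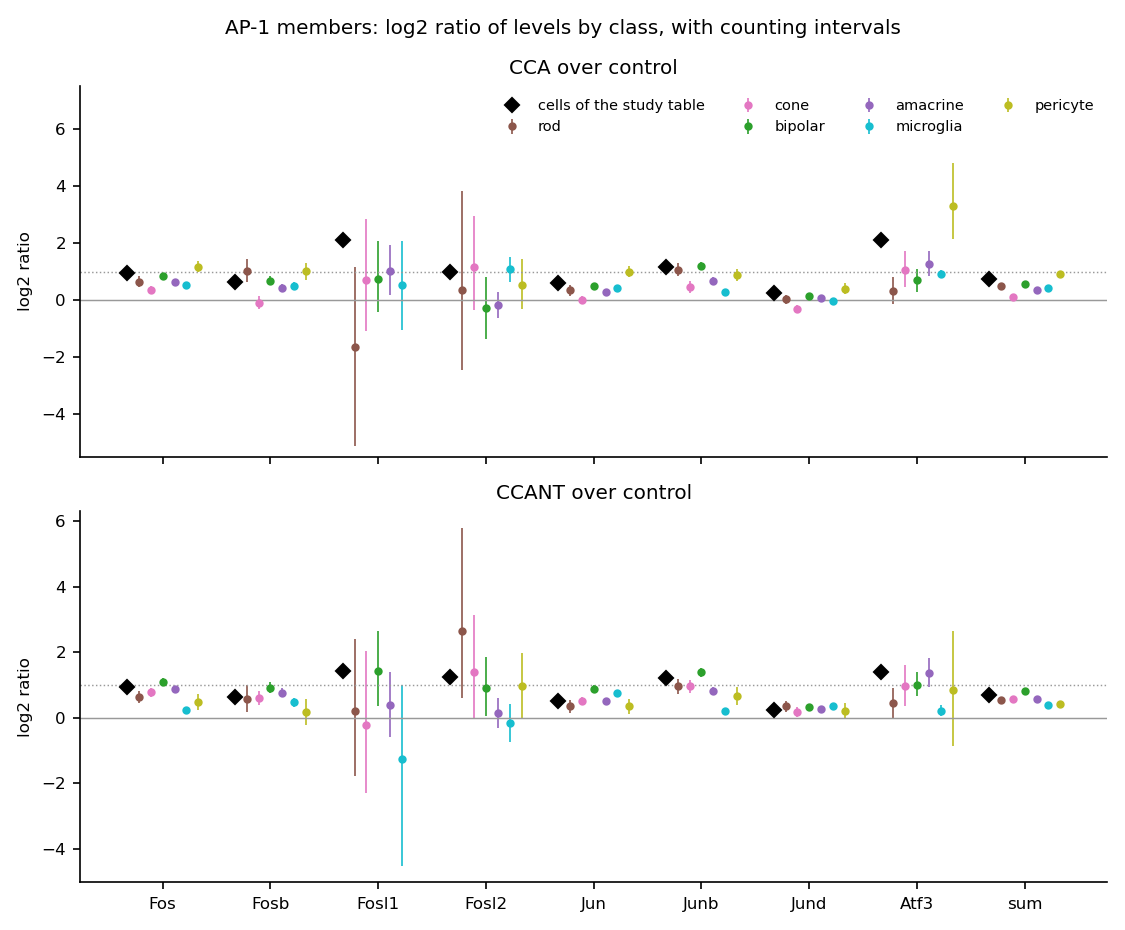
Log2 ratio of each member and of their sum, CCA over control above and CCANT over control below, in the kept cells (black diamonds) and 6 classes (dots), with exact 95% intervals for counting error only. The dotted line is a 2-fold rise, and *Fosl1* and *Fosl2* have wide intervals in the classes.

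Genes linked to AP-1 were read from lists, and their counts are set against the 5.81% of all genes that were at least 2-fold higher in CCA and the 5.55% in CCANT. Of 26 other immediate-early genes tested, 13 were at least 2-fold higher in CCA and 12 in CCANT in the kept cells, with a median log2 ratio of 0.99 and 0.90. *Nr4a3*, an orphan nuclear receptor, went from 2.82 CPM to 25.1 in CCA and 26.4 in CCANT, and *Egr2* from 1.92 CPM to 10.9 and 11.5. Their median was lower in every class, from 0.22 in cones to 0.72 in pericytes for CCA. Those medians are over different genes, since 15 were tested in rods and in pericytes, 19 in cones and 21 in bipolar cells. Of 19 genes tested that are taken as AP-1 targets, 9 were at least 2-fold higher in CCA, and of 17 in CCANT 8 were, among them *Gfap*, the intermediate filament of reactive glia, at 22.8, 75.9 and 101.2 CPM.

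Fewer partners, upstream kinases and phosphatases passed that fold. Of 22 partners and relatives 2 were at least 2-fold higher in CCA, *Maff* (log2 ratio 2.08) and *Cebpb* (1.15), with a list median of 0.11. Of 20 upstream kinases and factors 1 was, *Srf*, which encodes serum response factor (14.0 CPM in control, 29.3 in CCA, 23.3 in CCANT), with a list median of 0.02 and a share close to that of all genes. Of 8 MAP kinase phosphatases tested 1 was, *Dusp5*, at 2.75, 16.1 and 22.6 CPM, with a list median of 0.29 in CCA and 0.35 in CCANT. Heat shock genes that dissociation is known to induce had a median of 0.28 in CCA and 0.09 in CCANT, and 2 of 13 and 1 of 13 were at least 2-fold higher. *Hspa1a* was 8.22, 18.6 and 11.2 CPM and *Hspb1* 7.21, 18.4 and 32.2. The part of the dissociation in the members' levels was not tested.

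The genes most like the summed members over 7 populations in 3 libraries (21 values of log2(CPM + 1), which share libraries) were *Egr1* (Pearson r 0.985), *S100a13* (0.970), *Zfp36l1* (0.968), *Cd9* (0.967) and *Arf4* (0.965), of 8630 genes compared. These values differ between populations as well as between libraries. *Egr1*, another immediate-early gene, had 497.9, 879.6 and 881.9 CPM in the kept cells of control, CCA and CCANT. The others differed less between libraries there. *S100a13* had 74.9, 89.1 and 84.2 CPM, *Zfp36l1* 651.2, 725.6 and 783.4, *Cd9* 954.7, 963.7 and 997.5, and *Arf4* 228.6, 248.0 and 273.6.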

How the data were processed

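Per the labels and methods, the authors ran Cell Ranger 6.1.1 against mm10, with intronic reads included, and deposited raw UMI counts per library and a series-wide counts table. Counts were taken from the library matrices for the 10926 barcodes of that table, which holds a median of 93.1% of a cell's UMIs in control, 99.9% in CCA and 99.9% in CCANT. Other classes came from cells outside the table that held 2000 or more features, no more than 100000 UMIs and no more than 15% mitochondrial UMIs. All cells within these limits, those of the table included, were clustered together (scanpy 1.11.5, leidenalg 0.10.2, 2000 variable genes, 20 components, 20 neighbours, resolution 0.5). The members and other immediate-early, MAP kinase phosphatase, heat-shock, mitochondrial, sex-linked and transgene genes were left out of the clustering. Clusters were named from markers by a rule set after they had been seen. The authors removed doublets (DoubletFinder) on the way to their table. Class cells lie outside it and had no doublets removed. Passing cells shared 38, 24 and 23 barcodes between pairs of libraries. Ratios of summed counts carry exact Poisson intervals, shares of cells Clopper-Pearson intervals, and differences of log2 ratios a normal interval from 4 counts. For counts and medians over all genes, a log2 ratio was used where both libraries together held at least 50 UMIs, a limit not applied to the members. The function for ratios and their intervals was tested on simulated Poisson counts, the model that the intervals assume. The other steps were not tested in this way. The members and lists were chosen with earlier results of these data known. Named genes are the members, the 4 largest rises or falls of each list in CCA over control, its defining genes, and the 5 genes most like the members.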

Additional observations from a re-analysis of the deposited data

Results flagged for a closer look

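*Jund* in cones was lower in CCA than in control, with a log2 ratio of -0.31 (-0.47 to -0.16), while it was higher in the kept cells at 0.25. The estimated part of glial transcripts carried into cones was 20.6% in control and 11.9% in CCA, and after subtracting it *Jund* in cones stood at 71.4 CPM for control cells, 75.3 for CCA and 71.9 for CCANT, with no interval. The estimate ranged over markers from 18.0% to 27.6% in control and from 9.9% to 16.5% in CCA, and the part of carry-over in the difference was not tested. Without the 5% of cells with the highest Scrublet score the log2 ratio in cones was 0.09 (-0.15 to 0.33). It stood out because the directions were opposite in these populations. With 1 library per group the difference was not tested.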

How the results depend on the processing

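Every member stayed higher in CCA and CCANT than in control under every alternative run. The summed log2 ratio for CCA (0.74) was 0.68 with median-of-ratios size factors, 0.72 in MG-marker clusters, 0.68 in all passing cells of those clusters, 0.78 without cycling clusters, 0.79 as a mean over cells, 0.73 with the series-wide table, 0.79 after thinning to 3000 UMIs and 0.46 without cluster 2. That for CCANT (0.70) was 0.67, 0.65 in all passing cells, 0.72 without cycling clusters, 0.71 as a mean over cells, 0.69 with the table, 0.71 in Y-bearing cells and 0.48 without cluster 2. Members at least 2-fold higher in CCA (3) became 5 without cycling clusters, as a mean over cells or after thinning. They became 7 at a fold of 1.5, which 11.8% of all genes tested passed. In CCANT (4) they became 1 without cluster 2 and 6 at a fold of 1.5, which 11% of genes passed. Members above every class in CCA (0) became 1 without cycling clusters, as a mean over cells, after thinning, at a clustering resolution of 1, with class cells lacking a tdTomato UMI, less carried-over transcripts, or with classes under 50 UMIs of a member skipped. In CCANT (1) they became 0 after thinning, without the 5% of cells with the highest Scrublet score, at a resolution of 1, without cluster 2 or with members of at least 50 UMIs in every class, and 2 with class cells lacking tdTomato, less carried-over transcripts, in Y-bearing cells or with classes under 50 UMIs skipped.

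The settings without cluster 2, without the highest Scrublet scores and with the limits on class UMIs were chosen after seeing the data. Cluster 2 was left out although the members are high in it, so this setting removes cells partly by the outcome. Removing Scrublet calls was not run, since its threshold called no cell in the control and CCANT libraries. No paired analysis was possible because each group has 1 library. Depth limits *Fosl1* and *Fosl2* outside glia and *Atf3* in pericytes, where few cells (55, 97 and 40 in control, CCA and CCANT) limit every member.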
